A study of Mus musculus with 76 samples.

Results

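The 10 immediate early genes described here are *Fos*, *Fosb*, *Jun*, *Junb*, *Jund*, *Egr1*, *Ier2*, *Atf3*, *Klf2* and *Klf6*, taken by symbol from 18964 entries of the WAT table and 16775 entries of the liver table. All 10 were present in both tables. With a minimum mean normalized count of 10 over the libraries of a tissue, 8 of them could be tested in WAT and 7 in liver.

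Visceral white adipose tissue (WAT) and liver were taken from female knock-in mice with free access to food and drink. Fnip2C/C mice carried, on a pure C57BL/6 background, a CRISPR/Cas9-made T-to-C change at the miR-181b-5p site of the 3′UTR of *Fnip2*, together with a G-to-C change that removes the PAM. Fnip2T/T mice carried the ancestral T allele on both copies. The labels give the genotype, tissue, sex and feeding state of each mouse, and no age. WAT came from 4 Fnip2C/C and 5 Fnip2T/T mice, liver from 5 of each, and 6 mice gave both tissues.

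Immediate early genes are transcribed within minutes of a stimulus, from factors that are already present in the cell, and before any new protein is needed. Growth factors, feeding, stress, cell damage and the handling of a tissue after death are all known to induce them. Fos and Jun family proteins pair into the AP-1 transcription factor, *Egr1* encodes a zinc finger transcription factor, *Atf3* a stress-induced bZIP factor, and *Klf2* and *Klf6* encode Krüppel-like factors. *Jund* differs from the others in that many resting tissues transcribe it steadily, and *Klf2* is known for its expression in endothelium under blood flow.

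Promoter sequences were looked up because induction of these genes is known to act through a few short elements close to the start site. RefSeq windows on GRCm38.p6, 250 bases before to 50 after the start, were matched for 8 members. The windows below are read 5′ to 3′ on the strand of the gene, with the matched letters in capitals.
*Jun* (chr4:95052249-95052278, minus strand): aagcctcggggTGACATCAtgggctatttt
*Klf6* (chr13:5861359-5861388, plus strand): ttggtgcgagcTGACATCAtcgtcgcgcag
*Fos* (chr12:85473812-85473841, plus strand): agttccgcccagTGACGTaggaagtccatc
*Atf3* (chr1:191183324-191183353, minus strand): attaatagcattACGTCAgcctgggattgg
*Jun* and *Klf6* shared the 8 letters TGACATCA, a match to TGACNTCA, which covers the cyclic AMP response element and a variant AP-1 site. Of 32851 promoter windows of the same length, 8.83% held TGACNTCA on either strand. *Fos* and *Atf3* held the shorter letters TGACGT, *Atf3* on the opposite strand, and 7.51% of the windows did. These letters overlap TGACNTCA where both match the full palindrome. The AP-1 letters TGANTCA were found in none of the 8 windows and in 7.81% of all, the CArG box in none and in 1.63%, and TATAAA, searched on the strand of the gene, in *Fos* and *Junb* and in 8.32%. These matches describe letters in the windows, and sites outside them and members without a window were not searched.

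Recovered reads ranged from 4180209 to 6277644 per WAT library and from 5583041 to 7523200 per liver library. Several features of the WAT libraries moved with genotype or stood apart, and their part in the results on the members was not tested. The red blood cell markers, 4 of 5 of them lower in Fnip2C/C, summed to 3040 to 4300 normalized counts in Fnip2C/C and to 10300 to 13800 in Fnip2T/T WAT. The hepatocyte markers summed to 214 to 688 and to 843 to 2910, and small nucleolar RNAs took 0.0395% to 0.164% and 0.0139% to 0.0272% of the reads. Of 10 adipocyte markers, 7 were lower in Fnip2C/C, and 5 were without mouse 593. Single-exon coding genes, the class of *Jun*, *Junb*, *Jund* and *Ier2*, took 3.97% to 5.73% of the reads in Fnip2C/C and 8.04% to 14.6% in Fnip2T/T WAT. This class also holds the protein-coding genes of the mitochondrial genome, and the share without them was not computed. All mitochondrial transcripts took 10.6% to 18.8% of the reads in Fnip2C/C and 13.3% to 18.8% in Fnip2T/T WAT. The ovary markers summed to 22300 in the WAT library of Fnip2C/C mouse 593 and to no more than 90.2 in any other, so calls of members and of pathway lists are also given without this library. Fnip2C/C libraries of WAT all carried even RNA label numbers and Fnip2T/T libraries odd ones, so that genotype and the order of the labels cannot be told apart. The adipocyte markers summed to 74700 to 234000 in Fnip2C/C and to 118000 to 207000 in Fnip2T/T WAT, with the lowest sum in mouse 593. These sums thus overlapped between the genotypes. The hepatocyte markers summed to 594000 or more in every liver. The label numbers of the livers did not follow genotype.

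In WAT, 4 immediate early genes were higher in Fnip2C/C than in Fnip2T/T mice (*Jund*, *Egr1*, *Ier2* and *Jun*), 1 was lower (*Klf2*), and *Fos*, *Atf3* and *Klf6* did not pass the test at an adjusted p under 0.05. The 5 called members out of 8 stand beside 32.1% of all 12798 genes tested in this tissue. Of all genes, 15.1% were called higher and 17% lower in Fnip2C/C. The median log2 fold change was 0.59 over the 8 members and 0.02 over all genes. All adjusted p-values below are from limma with Benjamini-Hochberg adjustment over all genes of the tissue, and the values are normalized counts. In bulk tissue, fewer cells of a type and less RNA per cell cannot be told apart.

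**Figure D1:**
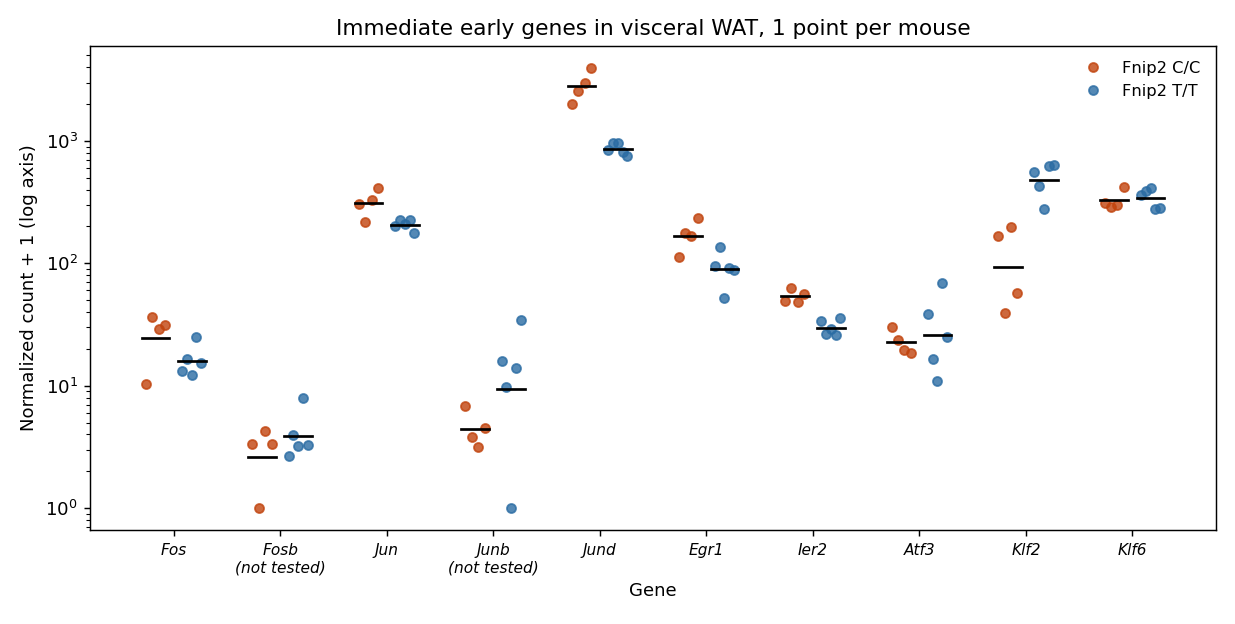
Normalized count plus 1 (log axis) of the 10 immediate early genes in WAT, with 1 point per mouse, for 4 Fnip2C/C and 5 Fnip2T/T mice; bars mark the mean on the log scale. *Jund* and *Ier2* lie higher and *Klf2* lies lower in every Fnip2C/C library than in any Fnip2T/T library, and points at 1 are libraries with 0 reads.

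Among the Jun family, *Jund*, which encodes a Jun protein present in many resting cells, had the largest difference. *Jund* stood at 1998, 2572, 2961 and 3948 in the Fnip2C/C libraries (mice 590, 593, 599 and 638) and at 837, 959, 967, 817 and 748 in the Fnip2T/T libraries (mice 607, 608, 609, 657 and 658). The lowest Fnip2C/C library was above the highest Fnip2T/T library by a wide margin. The group means were 2870 ± 821 (SD, n = 4) and 866 ± 94.9 (SD, n = 5). The log2 fold change, a difference of mean log values, was 1.69 (SE 0.209, adjusted p = 0.000508), and it was 1.73 without mouse 593 (adjusted p = 0.00135). The exact two-sided permutation test gave p = 0.00794, the smallest value that these group sizes allow. Genotypes that do not overlap were found for 26.1% of the genes tested in WAT.

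*Jun*, the founding partner of *Fos* in AP-1, was 306, 216, 326 and 414 in Fnip2C/C and 199, 226, 208, 225 and 175 in Fnip2T/T mice. The groups overlapped, since the library of mouse 593 fell within the Fnip2T/T range. The means were 315 ± 81 (SD, n = 4) and 206 ± 21 (SD, n = 5), with a log2 fold change of 0.58 (SE 0.195, adjusted p = 0.038). This call was close to the threshold. It was lost without a filter on low values (adjusted p = 0.0529), with quantile normalization (0.0572), with all libraries scaled to the same total (0.0622) and on leaving out any mouse but 593, with adjusted p-values of up to 0.105. Without mouse 593 the log2 fold change of *Jun* was 0.75 (adjusted p = 0.0103).

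*Junb*, a Jun protein that often restrains the activity of *Jun*, was too low in WAT to be tested. It had 5.88, 2.81, 2.17 and 3.51 normalized counts in Fnip2C/C and 14.8, 8.76, 0, 12.9 and 33.4 in Fnip2T/T mice. The Fnip2T/T group thus held both the highest values and a library without a read, that of mouse 609, and 0 reads allow up to 0.688 CPM (recovered reads scaled to a fixed library total) there. The difference in log2 mean was -1.09 (exact permutation p = 0.31). Without mouse 609, *Junb* passed the filter and was called lower in Fnip2C/C (log2 fold change -1.90, adjusted p = 0.0196). It passed there through the Fnip2T/T mice, which held its higher values. *Junb* also passed without mouse 593, 599 or 638 and was not called (adjusted p = 0.437, 0.499 and 0.439 in limma). With no filter and all mice, it was not called either (adjusted p = 0.359). Limits from counts of 0 cover counting error only.

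The 2 Fos family members were low in WAT. *Fos*, the best known marker of acute stimulation, was 9.41, 35.6, 28.2 and 30.4 in Fnip2C/C and 12.3, 15.6, 11.2, 23.8 and 14.4 in Fnip2T/T mice. The Fnip2C/C library of mouse 590 was the lowest of all 9, and the other Fnip2C/C libraries were above every Fnip2T/T library. Over all mice the log2 fold change was 0.61 (SE 0.402, adjusted p = 0.261), without mouse 590 it was 1.02 (adjusted p = 0.0359), and without mouse 593 it was 0.41 (adjusted p = 0.492). *Fosb*, its close relative, reached 7 reads at most in a library and was not tested. It lay between 0 and 3.25 normalized counts in Fnip2C/C and between 1.64 and 6.94 in Fnip2T/T mice (exact permutation p = 0.468), and the 0 in mouse 593 allows up to 0.648 CPM.

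*Egr1*, a transcription factor gene that responds to growth factors and to feeding, was 111, 177, 167 and 232 in Fnip2C/C and 94.4, 136, 51.4, 91.2 and 87.9 in Fnip2T/T mice. Only the library of mouse 590 in the first group and that of mouse 608 in the second crossed over. The means were 172 ± 49.7 (SD, n = 4) and 92.2 ± 30.1 (SD, n = 5), with a log2 fold change of 0.91 (SE 0.277, adjusted p = 0.025). The call was lost without mouse 599 (adjusted p = 0.055) or mouse 638 (0.0769), and without mouse 593 the adjusted p was 0.0486.

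*Ier2*, a small nuclear protein gene induced together with *Fos* and *Jun*, was 48.2, 61.8, 47.7 and 55 in Fnip2C/C and 32.8, 25.3, 27.9, 24.8 and 34.9 in Fnip2T/T mice. The genotypes did not overlap. The means were 53.2 ± 6.63 (SD, n = 4) and 29.1 ± 4.51 (SD, n = 5), with a log2 fold change of 0.85 (SE 0.228, adjusted p = 0.0136). Counting depth was modest, at 25 to 66 reads per library. The call stood in every alternative in which the gene was tested, with adjusted p-values of up to 0.037. Without mouse 593 the log2 fold change was 0.78 (adjusted p = 0.0353).

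*Klf2*, the flow-responsive endothelial factor that is also known to restrain the formation of fat cells, moved in the opposite direction. It was 165, 38.4, 196 and 56.2 in Fnip2C/C and 556, 430, 277, 619 and 635 in Fnip2T/T mice. The Fnip2C/C libraries differed among themselves, with mice 593 and 638 well under mice 590 and 599, yet all 4 lay under the lowest Fnip2T/T library. The means were 114 ± 78.3 (SD, n = 4) and 503 ± 150 (SD, n = 5), and *Klf2* fell by 2.38 on the log2 scale in Fnip2C/C (SE 0.442, adjusted p = 0.00253). Without mouse 593 the log2 fold change was -1.97 (adjusted p = 0.0057). Of 8 endothelial markers, *Pecam1*, *Kdr* and *Tie1* fell by 1.00, 1.03 and 1.23 on the log2 scale in Fnip2C/C, and *Tek*, an angiopoietin receptor gene, was higher by 0.91. The remaining 4 did not pass the test, and the summed level of the 8 ranged from 2410 to 3860 in Fnip2C/C and from 3300 to 4700 in Fnip2T/T WAT. The part of these cells and of the blood content in the difference of *Klf2* was not tested.

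The 2 other members tested gave no call. *Atf3*, induced by many kinds of stress, was 29.4, 22.5, 18.4 and 17.6 in Fnip2C/C and 37.8, 15.6, 10, 67.4 and 24.2 in Fnip2T/T mice, with a log2 fold change of -0.22 (SE 0.461, adjusted p = 0.745). The Fnip2T/T mice spread over a wider range, which included all Fnip2C/C values. *Klf6*, a Krüppel-like factor gene expressed in many tissues, lay between 288 and 416 in Fnip2C/C and between 279 and 411 in Fnip2T/T mice. Its log2 fold change was -0.06 (SE 0.186, adjusted p = 0.825), the smallest among the tested members in WAT.

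Within genotypes the members did not vary as 1 group in WAT. After subtraction of the genotype mean, Pearson's r over the 9 libraries was 0.71 for *Jund* and *Klf6*, 0.63 for *Fos* and *Egr1*, 0.61 for *Jun* and *Jund*, -0.58 for *Jun* and *Ier2* and -0.64 for *Atf3* and *Klf6*. These values are descriptions over libraries of unequal depth. The genes whose centred values were most like the mean of the 8 standardized members, among 8090 genes with a mean of at least 50, were *Vldlr*, *Cep63*, *Pld4*, *Gm38075* and *Ino80e*, with r from 0.973 to 0.949. All 5 were highest in the library of mouse 638, which also held the highest value of 4 members.

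Other immediate early genes, taken from a list of 53 written from general knowledge, were called in WAT in the lower direction alone when all libraries were used. Of the 39 that were tested, 14 were lower and 0 higher in Fnip2C/C, beside 17% and 15.1% of all genes, and their median log2 fold change was -0.57. *Nfkbia*, which encodes the inhibitor that NF-κB induces against itself, was 183 ± 59.3 (SD, n = 4) in Fnip2C/C and 822 ± 290 (SD, n = 5) in Fnip2T/T mice (log2 fold change -2.14, SE 0.299, adjusted p = 0.000784). *Ier5*, an immediate early gene tied to the heat shock response, fell by 2.27 on the log2 scale (adjusted p = 0.000907), from a mean of 66 in Fnip2T/T to 13.5. *Per1*, the clock gene that glucocorticoids and cyclic AMP induce, fell by 2.07 (adjusted p = 0.00107), from 108 to 23.7. None of these 3 genes, named for the lowest p of the list, overlapped between the genotypes, beside 26.1% of all genes tested in WAT without overlap. Named after their values were seen, the other 11 were *Dusp1*, *Dusp6*, *Btg2*, *Zfp36*, *Nr4a2*, *Cebpb*, *Cebpd*, *Rhob*, *Klf9*, *Gadd45a* and *Trib1*. *Dusp1*, which encodes a phosphatase that switches off MAP kinases and is commonly induced with *Fos* and *Egr1*, was 25.9 in Fnip2C/C and 112 in Fnip2T/T mice (log2 fold change -1.82, adjusted p = 0.0111), against the direction of *Egr1* and *Jun*. Without mouse 593, 15 were lower and 1, *Klf4*, was higher (log2 fold change 1.14, adjusted p = 0.0279), beside 15.8% and 13.8% of all genes. *Nfkbia*, *Ier5*, *Per1* and *Dusp1* stayed lower, whereas *Cebpb*, *Klf9* and *Trib1* lost their calls and *Fosl2*, *Maff*, *Sgk1* and *Tiparp* gained one in the lower direction.

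**Figure D2:**
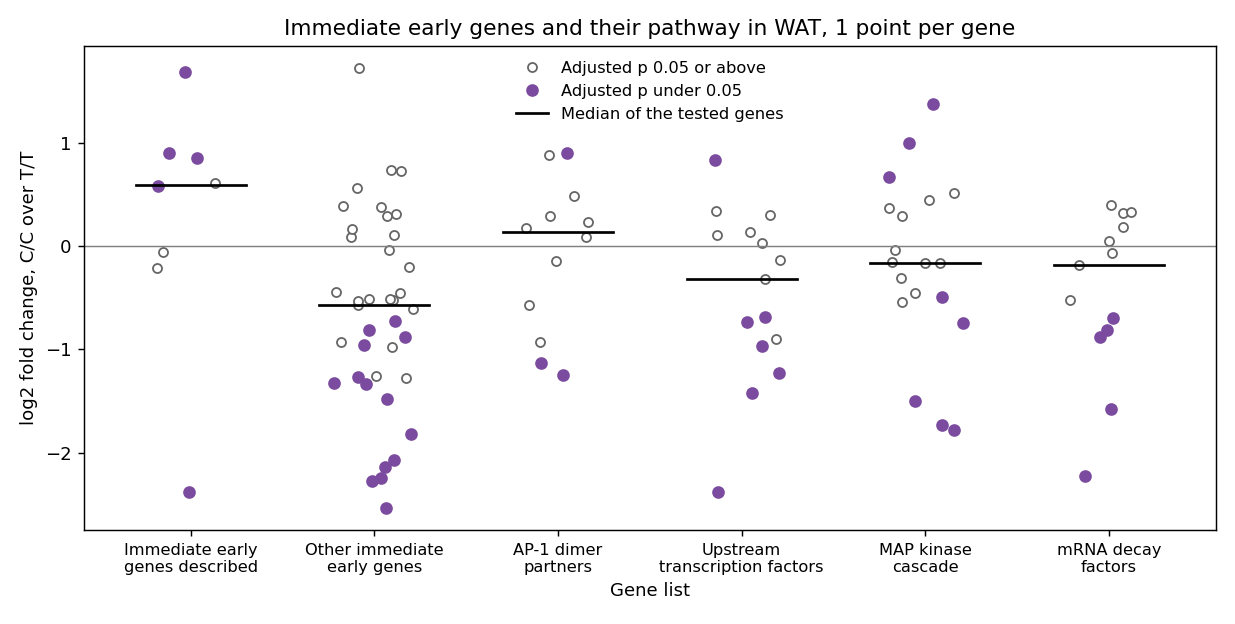
Log2 fold change (Fnip2C/C over Fnip2T/T) of every tested gene of 6 lists in WAT, 1 point per gene, filled at an adjusted p under 0.05, with the median of each list as a bar. The described members have a median of 0.59 and the other immediate early genes a median of -0.57, with no filled point above 0 in the latter. The lists share genes, among them *Klf2*, *Zfp36*, *Fosl2*, *Maff* and *Mafk*, which each appear in 2 lists.

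The counts of the lists below stand beside 15.1% of all genes called higher and 17% called lower in Fnip2C/C WAT. The lists share genes. *Fosl2*, *Maff* and *Mafk* stand both among the other immediate early genes and among the AP-1 partners. *Zfp36* counts as lower both among the other immediate early genes and among the decay factors. Of 12 AP-1 dimer partners tested, 1 rose and 2 fell in Fnip2C/C WAT. *Nfe2l2*, the gene of the antioxidant regulator NRF2, rose by 0.90 on the log2 scale (646 against 342, adjusted p = 0.00458), while *Maf* fell by 1.13 (adjusted p = 0.00247) and *Mafg*, a small Maf gene, fell by 1.24 (adjusted p = 0.00268). Of 15 transcription factors that switch on immediate early genes, a list that itself holds *Klf2*, 1 rose and 6 fell. The MEF2 factors, which drive *Jun* and *Klf2* in several cell types, split, with *Mef2d* lower (log2 fold change -1.23, adjusted p = 0.00178) and *Mef2c* higher (0.83, adjusted p = 0.00746). Of 19 genes of the MAP kinase cascade, 3 rose and 5 fell. *Mapk14*, the gene of the stress kinase p38α, fell by 1.78 (adjusted p = 0.000804) and *Mapk3*, which encodes ERK1, fell by 0.74 (adjusted p = 0.00551), whereas *Map3k1*, a kinase upstream of JNK, rose by 1.00 (adjusted p = 0.00177). Of 13 factors that act on the decay of AU-rich mRNAs, the fate of most immediate early transcripts, 0 rose and 5 fell, among them *Elavl1*, which encodes the stabilizing protein HuR (log2 fold change -2.22, adjusted p = 0.00135), *Pum2* (-0.81, adjusted p = 0.00661) and *Cnot7*, a deadenylase subunit gene (-1.58, adjusted p = 0.011). Without mouse 593, 1 of 11 AP-1 partners rose and 4 fell, and 1 upstream factor rose and 5 fell. In the same fit, 3 genes of the MAP kinase cascade rose and 3 fell, and 0 decay factors rose and 4 fell. Of all 12691 genes tested without mouse 593, 13.8% were called higher and 15.8% lower.

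*Jun*, *Junb*, *Jund* and *Ier2* are encoded by a single exon in GENCODE vM21. Among 209 single-exon coding genes tested in WAT, 13.9% were higher and 18.2% lower in Fnip2C/C, and among 11110 genes with more exons the shares were 14.7% and 17.5%. These are shares of genes called. The share of WAT reads on single-exon coding genes, mitochondrial ones included, was lower in every Fnip2C/C library than in any Fnip2T/T library. Its part in the differences of these members was not tested.

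In liver, no immediate early gene was called different between the genotypes. The 7 tested members had 0 calls beside 0% of 11710 genes in limma, and edgeR and DESeq2 on the recovered reads also called 0 genes. At an unadjusted p under 0.05, limma had 231 genes, edgeR 269 and DESeq2 225, with 0 members among them in each. What the livers showed instead was 1 library, that of Fnip2C/C mouse 592, in which a subset of the members stood far above all the others.

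**Figure D3:**
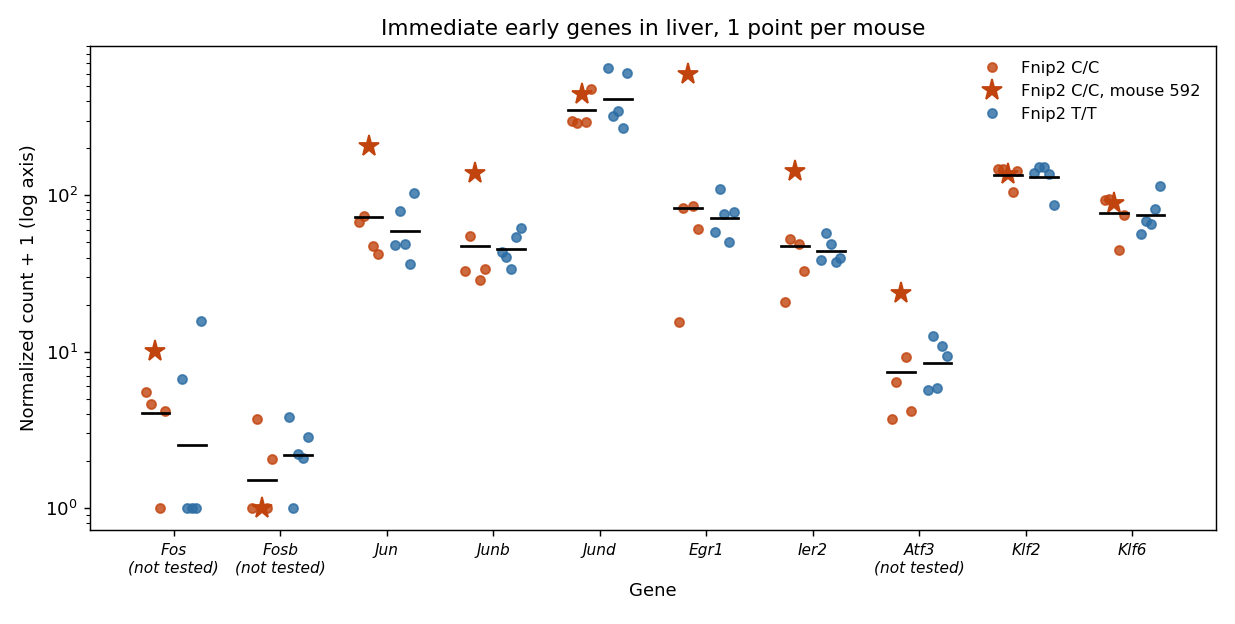
Normalized count plus 1 (log axis) of the 10 immediate early genes in liver, with 1 point per mouse for 5 Fnip2C/C and 5 Fnip2T/T mice; bars mark the mean on the log scale and stars the library of mouse 592. The stars of *Egr1*, *Jun*, *Ier2* and *Junb* lie above all other points of these genes, while those of *Jund*, *Klf2* and *Klf6* lie among them.

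*Egr1* was 14.4, 81.4, 597, 84.8 and 60.2 in Fnip2C/C livers (mice 590, 591, 592, 638 and 639) and 57.6, 108, 74.4, 49.4 and 77 in Fnip2T/T livers (mice 607, 608, 657, 658 and 659). The liver of mouse 592 was 7.94 times the median of the other 9 livers and 5.49 times the next highest, and mouse 590 had the lowest level. The log2 fold change by genotype was 0.22 (SE 0.849, adjusted p = 1), and it turned to -0.49 on leaving out mouse 592 and was 0.82 without mouse 590. On the recovered reads it was 1.19 in both edgeR and DESeq2, with no call in either.

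*Ier2* was 19.8, 51.6, 141, 47.6 and 31.7 in Fnip2C/C and 37.7, 56.4, 47.6, 36.2 and 39 in Fnip2T/T livers. *Junb* was 31.6, 54.3, 138, 27.9 and 32.7 in Fnip2C/C and 42.4, 39.2, 32.9, 52.7 and 61.2 in Fnip2T/T livers. For both genes the liver of mouse 592 was more than 2-fold above every other, at 2.48 times the next liver for *Ier2* and 2.23 times for *Junb*. *Jun* was 66.8, 72.4, 206, 46.6 and 41.2 in Fnip2C/C and 47.2, 78.4, 47.6, 35.1 and 103 in Fnip2T/T livers, so that mouse 592 had 1.99 times the level of the next liver, that of Fnip2T/T mouse 659. Their log2 fold changes were 0.13 (SE 0.41) for *Ier2*, 0.06 (SE 0.376) for *Junb* and 0.31 (SE 0.447) for *Jun*, and without mouse 592 they were -0.27, -0.33 and -0.06.

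The other 3 tested members were not raised in mouse 592. *Jund* was 446 in this liver and between 270 and 651 in the others, *Klf2* was 135 against 85.4 to 151, and *Klf6* was 88.4 against 43.5 to 114. Their log2 fold changes by genotype were -0.22 (SE 0.259), 0.05 (SE 0.165) and 0.02 (SE 0.224), each with an adjusted p of 1. *Klf2* therefore had the tightest estimate in liver, in contrast to its spread in WAT.

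*Fos*, *Fosb* and *Atf3* were below the filter in liver. *Fos* had 0 reads in 4 of the livers, where a count of 0 allows up to 0.441 to 0.537 CPM, and was highest in Fnip2T/T mouse 659 at 14.8 and next in mouse 592 at 9.12. *Fosb* was at 0 in 4 livers, mouse 592 among them, and reached 3 reads at most. *Atf3* was highest in mouse 592 at 22.8, against 2.71 to 11.5 elsewhere. The exact permutation p of the genotype difference was 0.492 for *Fos*, 0.27 for *Fosb* and 0.738 for *Atf3*.

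By a rule chosen after seeing these values, a gene stood apart in a library when its value plus 1 was over 2-fold above that of every other library of the tissue. In the liver of mouse 592 this held for 8 of 11710 genes, 0.0683%, and 3 of them were members (*Egr1*, *Ier2* and *Junb*). The other 5 were *Cish* and *Socs2*, which encode feedback inhibitors of cytokine and growth hormone signalling, *Phlda1*, an early response gene, the small nucleolar RNA gene *Snora30*, and *Gm15590*. *Cish* was 397 against at most 151 elsewhere, *Socs2* 1820 against at most 902, and *Phlda1* 2220 against at most 877. None of the 37 other immediate early genes tested in liver met the rule in mouse 592. *Dusp1* was at 89.3 there with 49.1 to 155 in the other livers, *Zfp36* at 139 with 47.8 to 111, and *Per1* at 21.9 with 18.2 to 160. Named after their values were seen, *Hes1* (373 against at most 272), *Trib1* (618 against at most 481), *Plk3*, *Maff* and *Rhob* were also highest in mouse 592, by less than 2-fold. *Klf4*, *Btg1* and *Mcl1* were lowest there. No other library of either tissue had a tested member that met the rule. *Junb*, below the filter in WAT, met it in Fnip2T/T mouse 658, at 33.4 normalized counts against at most 14.8 in the other WAT libraries. Small nucleolar RNAs took 0.0313% of the reads in mouse 592 and 0.012% to 0.0273% in the other livers, and the adipocyte markers summed to 645 there and to 429 to 608 elsewhere. Every other marker list summed to a value within the range of the other livers. The cause of the levels in this liver was not tested.

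**Figure D4:**
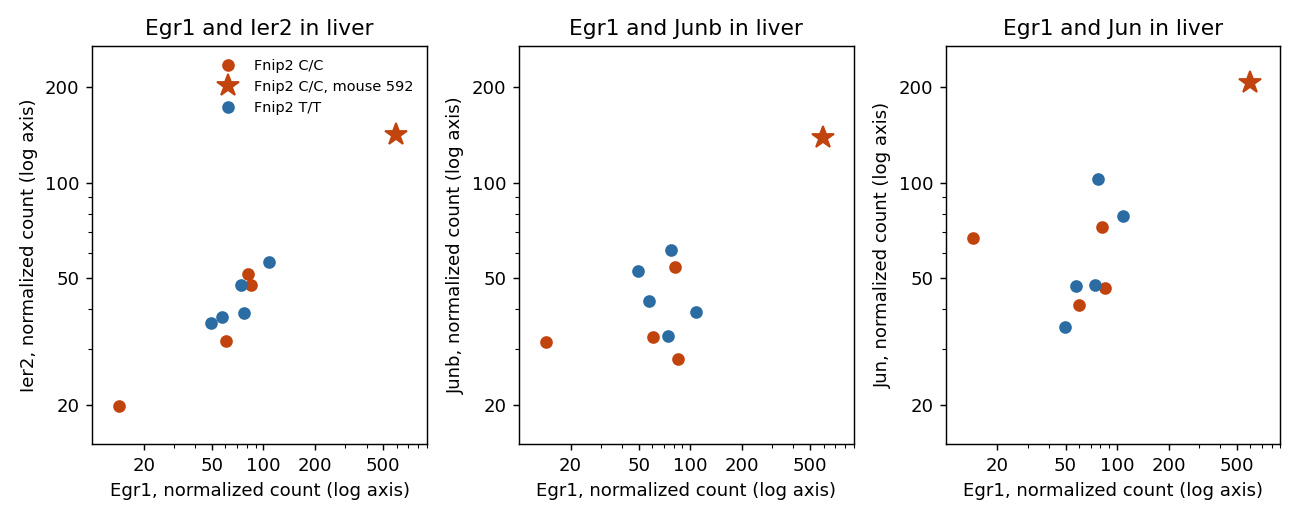
Normalized counts of *Ier2*, *Junb* and *Jun* against *Egr1* (both axes log) in 10 livers, 1 point per mouse, with a star for mouse 592. *Ier2* rises with *Egr1* over the livers, with r = 0.979 with the star and 0.94 without it. For *Junb* and *Jun*, r is 0.744 and 0.668 with the star and 0.23 and 0.112 without it.

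Of 21 pairs of tested members over the 10 livers, 1 was correlated after adjustment over the pairs. *Egr1* and *Ier2* had Pearson's r of 0.979 (permutation p = 0.00014, adjusted 0.00294) and Spearman's rho of 0.939 (permutation p = 0.0003, adjusted 0.0063) with 100000 resamples. On leaving out the 2 livers farthest from the median of *Egr1*, r was 0.848 over 8 livers with an adjusted permutation p of 0.174, and the call was lost. With fewer livers and a narrower range of *Egr1*, this cannot show whether the correlation rested on those livers. Without mouse 592 alone, r was 0.94 over 9 livers, with an adjusted permutation p of 0.0202. *Jun* and *Junb* had r of 0.788, *Junb* and *Egr1* 0.744, and *Jun* and *Egr1* 0.668, each with an adjusted permutation p of 0.268, and these dropped to 0.40, 0.23 and 0.112 without mouse 592. *Klf2* and *Klf6* had r of -0.0919 and -0.0113 with *Egr1*. The median r of all pairs was 0.219 with all livers and 0.112 without mouse 592.

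The genes most like the mean of the 7 members in liver, among 7624 genes with a mean of at least 50, were *Foxq1*, *Sf3a1*, *Phlda1*, *Foxa2* and *Irak4*, with centred r from 0.922 to 0.863 over 10 livers. *Foxq1*, a forkhead factor gene, was 446 in mouse 592 and at most 277 elsewhere.

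In the wider pathway in liver, every list had 0 calls. Of the other immediate early genes, 3 of 37 had an unadjusted p under 0.05. These were *Nfkbia* (log2 fold change 0.39, SE 0.165), *Ccn1* (-0.60, SE 0.271), which encodes a matricellular protein, and *Ier5* (-0.47, SE 0.213), each with an adjusted p of 1 in limma. No gene of the AP-1 partners (11 tested), the upstream factors (15), the MAP kinase cascade (19) or the decay factors (12) reached an unadjusted p under 0.05. The lowest in each were *Atf2* (-0.25, SE 0.177), *Crem* (0.18, SE 0.147), *Mapk7* (-0.40, SE 0.237) and again *Pum2* (0.13, SE 0.12).

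An interaction contrast over all 19 libraries compared the genotype effect in WAT with that in liver, and 29.2% of 10404 genes passed it. *Jund* and *Klf2* passed among the 6 members tested in both tissues. The effect on *Jund* was 1.92 higher on the log2 scale in WAT than in liver (SE 0.336, adjusted p = 0.00039), and that on *Klf2* was lower in WAT, with a difference of -2.43 (SE 0.507, adjusted p = 0.00193). For *Egr1*, *Ier2* and *Jun*, which were called in WAT alone, the difference between tissues was 0.69 (SE 0.906, adjusted p = 0.597), 0.73 (SE 0.474, adjusted p = 0.254) and 0.27 (SE 0.493, adjusted p = 0.717), and was thus not shown. For *Klf6* it was -0.08 (SE 0.309, adjusted p = 0.86). Without mouse 592 the interaction of *Ier2* was 1.12 (adjusted p = 0.022) and that of *Egr1* 1.40 (adjusted p = 0.0759).

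**Figure D5:**
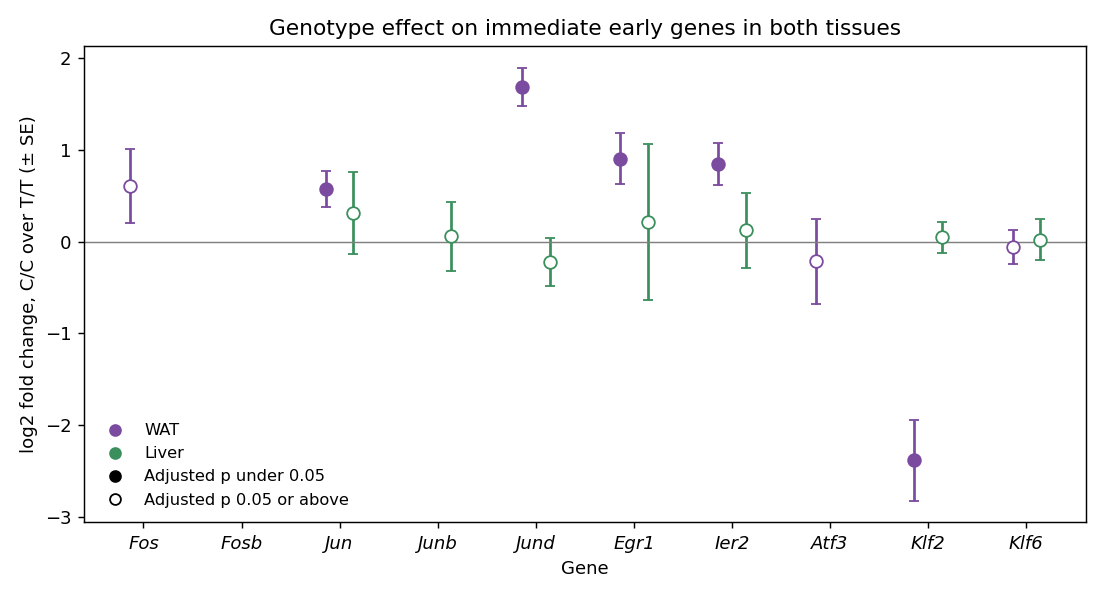
Log2 fold change (Fnip2C/C over Fnip2T/T) with its SE for each tested member in WAT (n = 4 and 5) and in liver (n = 5 and 5), filled at an adjusted p under 0.05. *Jund* (1.69 and -0.22) and *Klf2* (-2.38 and 0.05) part between the tissues, and the bar of *Egr1* in liver (SE 0.849), where mouse 592 is included, is the widest.

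The tables were normalized separately, so levels in the 2 tissues are set side by side only, as CPM of each library. *Jund* ranged from 157 to 806 in WAT and from 39.5 to 93.7 in liver, *Klf6* from 59.1 to 87.2 and from 6.21 to 17.8, and *Klf2* from 8.86 to 144 and from 13.3 to 23.1. *Egr1* ranged from 10.5 to 47.4 in WAT and from 2.21 to 90.6 in liver, where mouse 592 set the upper end. *Jun* ranged from 36.8 to 84.4 and from 5.14 to 31.3, *Ier2* from 5.5 to 14.3 and from 3.03 to 21.4, and *Atf3* from 2.06 to 15.7 and from 0.414 to 3.46. *Junb* ranged from 0 to 7.01 in WAT and from 3.99 to 20.9 in liver. *Fos* stayed at or under 8.21 and *Fosb* at or under 1.61 CPM in every library of both tissues.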

How the data were processed

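RNA from WAT (500 ng) and liver (250 ng) was sequenced with the stranded QuantSeq 3′ FWD kit, whose reads start close to the end of polyadenylated transcripts, as 76 run samples, 4 per mouse and tissue. The signal values that the authors deposited, 1 table for each tissue with 1 column per mouse, are gene read counts that they had divided by 1 size factor per library, with no factor shared between the tables. The submitters' processing notes name FastQC 0.11.9, HISAT2, SAMtools 1.12, HTSeq, DESeq2 and GRCm39. Division by the smallest step gave back whole reads for 100% of the values within 0.001. Reads are not independent molecules, since no molecular identifiers are mentioned. A WAT column (1 in all) that matched no label was not used. Groups came from genotype and mouse number in the labels, and each mouse is 1 replicate.

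Values were tested as log2(normalized count + 1), at a mean of at least 10, with limma 3.58.1 in R 4.3.3 (trend and robust options) on the whole table of each tissue (Fnip2C/C minus Fnip2T/T), with Benjamini-Hochberg adjustment. Fold changes on this scale understate those of low genes. Single genes also had an exact two-sided permutation test over mice. The numbering pairs samples of the 6 mice that gave both tissues. Correlations of their deviations ranged from -0.203 to 0.156, and the mouse was a block in an alternative interaction fit. The other alternatives were pseudocounts of 0.5 and 10, a minimum mean of 50 or none, library weights, libraries scaled to 1 total, quantile normalization, edgeR 4.0.16 (quasi-likelihood, TMM) and DESeq2 1.42.0 on the recovered reads, a term for mouse numbers under or over 620, and each mouse left out. A term for even label numbers in liver, and list counts without WAT mouse 593, were added after seeing the data. Members, lists (from general knowledge) and named genes (all members, the 3 lowest p per pathway list and tissue, and the 5 genes most like the members) were chosen with earlier results of these data known. The scripts were tested on simulated data. Promoters came from RefSeq (GRCm38.p6) and exon numbers from GENCODE vM21, another build than that of the counts.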

Additional observations from a re-analysis of the deposited data

Results flagged for a closer look

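The effect of genotype on *Jund* (1.92 higher in WAT than in liver on the log2 scale) and on *Klf2* (-2.43) differed between the tissues by the interaction test. Of all 10404 genes in this test, 29.2% passed it.

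Within the 40 groups of libraries of 1 member, 1 genotype and 1 tissue, 3 had a library far from the others by Dixon's gap ratio, where chance gives about 1 in 20. *Fosb* was at 0 in the WAT of Fnip2C/C mouse 593, with 2.34 to 3.25 in the other mice of its group. *Klf2* was lowest, at 104, in the liver of Fnip2C/C mouse 638, with 135 to 146 in the others, and at 85.4 in the liver of Fnip2T/T mouse 659, with 135 to 151 in the others. The liver of mouse 592 did not pass this ratio on the log2 scale for any member.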

How the results depend on the processing

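The count of 5 members called in WAT ranged from 3 to 5 with each mouse left out, and was 3 without mouse 599 or mouse 638. The genes behind the count changed. Without mouse 590 *Fos* was called and *Jun* was not, and without mouse 609 *Junb* was called and *Jun* was not. *Jund*, *Klf2* and *Ier2* kept their calls in every alternative that tested them. With the mouse as a block (consensus correlation -0.114), the same 2 members differed between tissues (*Jund* 1.91, adjusted p = 0.00066, and *Klf2* -2.43, adjusted p = 0.00301), and the block changed no call. The count of such members ranged from 2 to 3 with each mouse left out, the third being *Ier2* without mouse 592 and *Junb* without mouse 609 (-1.964, adjusted p = 0.0137). *Junb* was also tested without mouse 593, 599 or 638 and did not differ there (adjusted p = 0.454, 0.489 and 0.402 in limma). The 1 correlated pair of members in liver became 0 without the 2 livers farthest from the median.

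Turned directions were all among estimates without a call. With each mouse left out, log2 fold changes ranged from -0.527 to 0.131 for *Atf3* and from -0.178 to 0.008 for *Klf6* in WAT. In liver they ranged from -0.063 to 0.519 for *Jun*, -0.326 to 0.239 for *Junb*, -0.495 to 0.824 for *Egr1*, -0.269 to 0.424 for *Ier2*, -0.102 to 0.137 for *Klf2* and -0.079 to 0.22 for *Klf6*. The interaction ranged from -0.032 to 0.641 for *Jun* and from -0.398 to 0.039 for *Klf6*. Library weights turned *Junb* (-0.072) and *Klf6* (-0.051) in liver, and the term for mouse numbers turned *Junb* (-0.02) and *Klf2* (-0.002). The cause was not tested. The term for even label numbers in liver left 0 calls, and it does not cover the order of the labels. Low counts limit *Fos*, *Fosb* and *Junb* in WAT and *Fos*, *Fosb* and *Atf3* in liver.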
